A study of Caenorhabditis elegans with 22 samples.

Results

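The 8 genes described here handle iron and heme in the nematode Caenorhabditis elegans. They are the ferritin genes ftn-1 and ftn-2, the metal transporter genes smf-1, smf-2 and smf-3, and the heme-responsive genes hrg-1, hrg-3 and hrg-4. They were chosen by symbol, as every probe set (a group of short probes that reads 1 transcript) annotated to 1 of these genes alone, and they are 8 of the 17118 genes named on the array. Each had 1 probe set except ftn-2, which had 2.

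Whole young adult hermaphrodites in the Bristol N2 background were measured on 22 Affymetrix arrays. There were 3 arrays each of isp-1(qm150), nuo-6(qm200), the double mutants isp-1(qm150) ced-4(n1162) and nuo-6(qm200) ced-4(n1162), the single mutant ced-4(n1162), and wild type treated with 0.1 mM paraquat, set against 4 arrays of untreated wild type. ISP-1 is the Rieske iron-sulfur protein of respiratory complex III, NUO-6 is a subunit of complex I, CED-4 is the adaptor protein of the cell death pathway, and paraquat is a herbicide that makes superoxide in cells. The study asked what the isp-1 and nuo-6 mutants share with paraquat treatment. Worms came from an egg lay of 4 h and were picked by hand, and the length of the paraquat exposure is not given in the sources used here. The replicates are called biological but are not said to come from separate cultures, so the p-values cover the spread among these arrays alone, part of which may be technical.

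As background, worms cannot make heme and take it from their food. HRG-4 brings heme into intestinal cells and HRG-1 moves it out of acidic vesicles inside them, while HRG-3 is a secreted carrier that delivers maternal heme to oocytes and embryos, and transcripts of these genes are known to rise when heme is scarce. FTN-1 and FTN-2 are ferritins, which store iron in a protein shell. Transcripts of ftn-1 are known to rise with iron and to fall, through the hypoxia factor HIF-1, when iron is low. The SMF proteins are metal ion transporters of the NRAMP family, relatives of mammalian DMT1, and SMF-3 is the main one for iron uptake in the worm intestine.

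Values are the deposited log2 GCRMA expression values, from 0.926 to 15.25 over the whole table, and the lowest ones are near what the background correction leaves. A probe set was tested where it reached the median of the table, 3.68, on at least 3 arrays, which 12639 probe sets did. Of the 8 genes, ftn-1, ftn-2, smf-1, hrg-1, hrg-3 and hrg-4 were tested, and smf-2 and smf-3 were too low. Differences below are on the log2 scale with their model SE, group values are means ± SD, and "rose" or "fell" means a Benjamini-Hochberg adjusted p under 0.05 in limma over all 12639 probe sets. Because whole worms were used, fewer cells of a type and less RNA per cell cannot be told apart. There are 3 arrays that need care. The first isp-1 array correlated at 0.993 with the first nuo-6 array, against 0.967 to 0.976 with the other isp-1 arrays, and the first wild type array correlated at 0.945 with the third wild type array, the lowest value within wild type. Without the first isp-1 array, 753 probe sets rather than 1 were called in nuo-6 against isp-1, and without the first wild type array 3404 rather than 1999 were called in ced-4 against wild type.

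**Figure D1:**
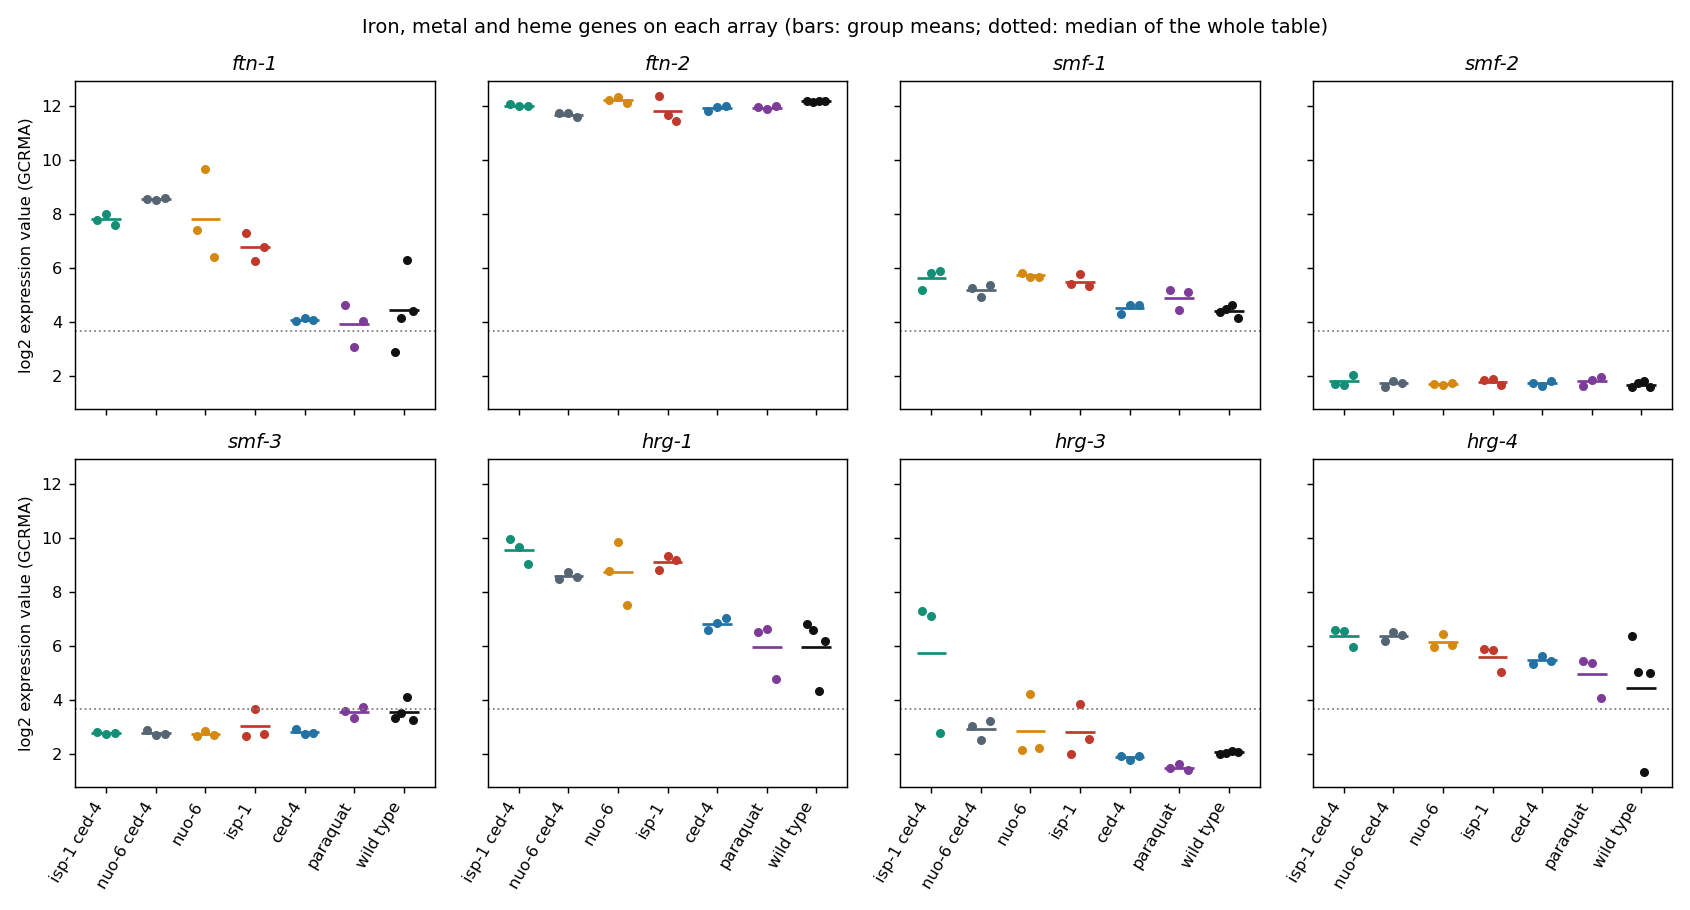
Log2 expression of the 8 genes on every array (points), with the mean of each group (bar); wild type is the rightmost group in each panel and the dotted line is the median of the table, 3.68. The 4 groups that carry isp-1 or nuo-6 stand high in ftn-1 and hrg-1, where wild type averaged 4.45 and 5.99.

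Among the ferritins, the inducible gene ftn-1 was higher in each of the 4 groups with a respiratory chain mutation. Its level was 7.32, 6.27 and 6.79 on the isp-1 arrays and 7.43, 9.69 and 6.41 on the nuo-6 arrays. In the double mutants it was 7.81, 8.03 and 7.62 in isp-1 ced-4 and 8.58, 8.53 and 8.62 in nuo-6 ced-4. It was 4.64, 3.10 and 4.03 with paraquat and 4.04, 4.16 and 4.10 in ced-4, against 2.89, 4.16, 6.33 and 4.41 in wild type. The third wild type array was the highest of its group and overlapped the lowest isp-1 array, at 6.33 against 6.27, while all nuo-6 and double mutant arrays lay above it. ftn-1 rose 5.09-fold in isp-1, with a log2 difference of 2.35 (SE 0.668, limma adjusted p = 0.0175), and 10.5-fold in nuo-6 (difference 3.40, SE 0.668, limma adjusted p = 0.00104). Without the third wild type array the differences were 2.97 in isp-1 and 4.02 in nuo-6. The other wild type arrays were low, around the median of the table, so the size of these rises is uncertain. The isp-1 call was lost without the first isp-1 array, where the difference was 2.08 with a limma adjusted p of 0.0672, with the replicate number as a block (2.33, limma adjusted p = 0.0531), and in a fit of isp-1 and wild type alone (limma adjusted p = 0.0965). In wild type with paraquat ftn-1 differed from untreated wild type by -0.52 (95% interval -1.93 to 0.88, limma adjusted p = 0.568), and by 0.11 without the third wild type array.

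Against ced-4 as the background, the rise of ftn-1 was 13.1-fold in isp-1 ced-4 (difference 3.72, SE 0.714, limma adjusted p = 0.000375) and 22.3-fold in nuo-6 ced-4 (difference 4.48, SE 0.714, limma adjusted p = 0.0003), with no overlap between groups in either case. In nuo-6 ced-4 against ced-4 it was number 17 among the 12639 probe sets by size of rise. The ced-4 arrays were low as well, so the size of both rises is uncertain. ced-4 alone differed from wild type by -0.35 (limma adjusted p = 0.781). From the highest mean level to the lowest, the order was nuo-6 ced-4, nuo-6, isp-1 ced-4, isp-1, wild type, ced-4 and paraquat. Of the neighbours in that order, only isp-1 ced-4 and isp-1 had arrays that did not overlap. The ftn-1 probe set is of a kind that may bind more than 1 transcript, and the part of its close relative ftn-2 in the signal was not tested. The same limit holds for the hrg-1 probe set and for both ftn-2 probe sets.

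The second ferritin gene, ftn-2, moved little. It read 12.39, 11.69 and 11.44 in isp-1, 12.23, 12.36 and 12.13 in nuo-6, and 11.98, 11.89 and 12.01 with paraquat. In isp-1 ced-4 it read 12.080, 12.004 and 12.003, in nuo-6 ced-4 11.76, 11.74 and 11.60, and in ced-4 11.82, 11.96 and 12.02, against 12.22, 12.18, 12.18 and 12.19 in wild type. Its group means spanned 0.54 in all, compared with 4.65 for ftn-1 and 3.59 for hrg-1. ftn-2 fell in nuo-6 ced-4 relative to nuo-6, by 0.54 on the log2 scale (SE 0.163, limma adjusted p = 0.019), with every double mutant array below every nuo-6 array. That call was lost when the second nuo-6 array (difference -0.48, limma adjusted p = 0.0737) or the third nuo-6 ced-4 array (difference -0.49, limma adjusted p = 0.0711) was left out, after cyclic loess (difference -0.45, limma adjusted p = 0.0662), after median centring (difference -0.44, limma adjusted p = 0.0584), and on the other ftn-2 probe set (difference -0.32, limma adjusted p = 0.185).

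The isp-1 group was split in ftn-2, with the first array near wild type and the other two below every wild type array. Over the 3 arrays the difference from wild type was -0.35 (SE 0.153, limma adjusted p = 0.109), and without the first isp-1 array it was -0.63 with a limma adjusted p of 0.000851. The mean log2 level of 14 intestinal marker genes was 9.45 on that array and 8.89 and 8.51 on the other isp-1 arrays, against 9.06 to 9.43 in wild type, and its part in the ftn-2 values was not tested. The ftn-2 probe sets disagreed on paraquat. The brighter one gave -0.23 (limma adjusted p = 0.242), while the other averaged 8.17 ± 0.0851 with paraquat and 8.75 ± 0.174 in wild type (SD, n = 3 and 4), a fall of 0.58 on the log2 scale (limma adjusted p = 0.00804).

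Of the metal transporter genes, smf-1 was the single one above the filter, and it rose in both respiratory chain mutants. Its level was 5.41, 5.78 and 5.34 in isp-1, 5.83, 5.69 and 5.69 in nuo-6, 5.20, 5.82 and 5.90 in isp-1 ced-4, and 5.27, 4.95 and 5.38 in nuo-6 ced-4. With paraquat it was 5.19, 4.44 and 5.12, and in ced-4 4.31, 4.65 and 4.65, against 4.37, 4.50, 4.65 and 4.18 in wild type. All arrays with an isp-1 or nuo-6 mutation lay above all wild type arrays. smf-1 rose 2.12-fold in isp-1 (difference 1.08, SE 0.199, limma adjusted p = 0.0011) and 2.48-fold in nuo-6 (difference 1.31, SE 0.199, limma adjusted p = 0.00012), and both calls held in all 14 alternatives run. It also rose in isp-1 ced-4 against ced-4, by 1.11 (SE 0.213, limma adjusted p = 0.00038), and in nuo-6 ced-4 against ced-4, by 0.67 (SE 0.213, limma adjusted p = 0.038). The last of these was lost when any 1 of 5 of the 6 arrays was left out, with limma adjusted p-values up to 0.151 without the first ced-4 array.

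Paraquat arrays straddled the wild type range in smf-1, with the second array inside it and the other two above it. The difference was 0.49 (95% interval 0.07 to 0.91, limma adjusted p = 0.0557), just short of the threshold. It passed without the second paraquat array, at 0.73 with a limma adjusted p of 0.00812, and without the third wild type array, at 0.57 with a limma adjusted p of 0.0395. So smf-1 with paraquat cannot be placed on either side of the threshold from these arrays. The smf-1 probe set may bind more than 1 transcript, and smf-2 is its neighbour in the genome.

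smf-2 stayed below the median of the table on all 22 arrays, with group means from 1.70 to 1.84, which is too low to compare groups. smf-3, the intestinal iron importer, was low as well and reached the median on 2 arrays, 1 with paraquat and 1 of wild type. It read 2.67, 3.67 and 2.77 in isp-1, 2.67, 2.87 and 2.70 in nuo-6, and 3.59, 3.33 and 3.76 with paraquat, against 3.34, 3.55, 4.11 and 3.27 in wild type. The arrays of ced-4 and of both double mutants lay between 2.70 and 2.95. All nuo-6, ced-4 and double mutant arrays were thus below all wild type arrays, and the paraquat arrays lay within the wild type range. With no filter on low values, smf-3 in nuo-6 differed from wild type by -0.82 (limma adjusted p = 0.00802), in ced-4 by -0.74 (limma adjusted p = 0.0259), in isp-1 by -0.53 (limma adjusted p = 0.101) and with paraquat by -0.01 (limma adjusted p = 0.989). At such levels the size of these differences is uncertain.

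hrg-1, the vesicular heme transporter gene, rose in both respiratory chain mutants. Its level was 8.81, 9.35 and 9.19 in isp-1, 8.80, 9.86 and 7.54 in nuo-6, 9.96, 9.69 and 9.04 in isp-1 ced-4, and 8.50, 8.74 and 8.59 in nuo-6 ced-4. It was 6.51, 6.63 and 4.78 with paraquat and 6.60, 6.87 and 7.05 in ced-4, against 6.81, 6.59, 4.35 and 6.20 in wild type. Every array with an isp-1 or nuo-6 mutation was above every array without one, and the third wild type array and the third paraquat array were the lowest 2 of the 22. hrg-1 rose 8.78-fold in isp-1 (difference 3.13, SE 0.558, limma adjusted p = 0.000863) and 6.72-fold in nuo-6 (difference 2.75, SE 0.558, limma adjusted p = 0.0013). Both calls held in all 14 alternatives, and without the third wild type array the isp-1 difference was 2.59 (limma adjusted p = 0.0015), below that of ftn-1 without the same array, and the nuo-6 call held with a limma adjusted p of 0.00262.

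In the ced-4 background hrg-1 rose by 2.72 in isp-1 ced-4 (SE 0.596, limma adjusted p = 0.00111). The difference was 1.77 in nuo-6 ced-4 (SE 0.596, limma adjusted p = 0.049), a call that was lost whichever of the 6 arrays was left out, with limma adjusted p-values from 0.0904 to 0.137. For paraquat the difference from wild type was -0.01 (95% interval -1.18 to 1.16, limma adjusted p = 0.99), and -0.56 (limma adjusted p = 0.382) without the third wild type array. ced-4 alone differed by 0.86 (95% interval -0.32 to 2.03, limma adjusted p = 0.335), and by 0.31 (limma adjusted p = 0.747) without the third wild type array. The order of mean levels, from the highest, was isp-1 ced-4, isp-1, nuo-6, nuo-6 ced-4, ced-4, wild type and paraquat, and of these neighbours only nuo-6 ced-4 and ced-4 did not overlap.

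hrg-4, the gene of the intestinal heme importer, had higher means in the mutants but did not pass the test in any comparison of the fit of all groups. It read 5.91, 5.85 and 5.03 in isp-1, 5.97, 6.47 and 6.04 in nuo-6, 6.60, 6.58 and 5.98 in isp-1 ced-4, and 6.19, 6.52 and 6.43 in nuo-6 ced-4. Levels were 5.46, 5.39 and 4.07 with paraquat and 5.35, 5.65 and 5.46 in ced-4, against 6.40, 5.06, 1.36 and 5.01 in wild type. The first wild type array overlapped the mutants, and the third lay far below all other arrays. The difference from wild type was 1.14 in isp-1 (limma adjusted p = 0.283) and 1.70 in nuo-6 (limma adjusted p = 0.0837). Without the third wild type array these were 0.11 and 0.67 (limma adjusted p = 0.866 and 0.19), and without the first one the nuo-6 difference was 2.35 and passed, with a limma adjusted p of 0.012. All arrays of both double mutants lay above all ced-4 arrays. In fits of the compared groups alone hrg-4 passed in isp-1 ced-4 relative to ced-4 (difference 0.90, limma adjusted p = 0.00976), in nuo-6 ced-4 relative to ced-4 (difference 0.90, limma adjusted p = 0.00126) and in nuo-6 against paraquat (difference 1.18, limma adjusted p = 0.0338).

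Some other genes of heme and iron handling were low on the third wild type array and some were not. hrg-7, the gene of a secreted relative of aspartic proteases that acts in heme signalling between worm tissues, read 8.30 there and 10.45 to 10.88 on the other wild type arrays. The ferroportin relative fpn-1.1, an iron exporter, read 5.49 there and 8.31 to 8.72 on the others, and was singled out after its values were seen. hrg-9 read 3.83 there, against 3.82 to 4.38 over wild type, and mrp-5 read 9.75, against 9.71 to 10.30. The mean level of the 14 intestinal markers on that array was 9.42, within the 9.06 to 9.43 of wild type.

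hrg-3, the gene of the maternal heme carrier, was near the background everywhere except on a few mutant arrays. It read 7.32, 7.13 and 2.80 in isp-1 ced-4, 2.00, 3.87 and 2.56 in isp-1, 2.16, 4.22 and 2.21 in nuo-6, and 3.06, 2.55 and 3.23 in nuo-6 ced-4. It read 1.47, 1.64 and 1.40 with paraquat and 1.94, 1.78 and 1.92 in ced-4, against 2.03, 2.06, 2.13 and 2.08 in wild type. The probe set passed the filter through 4 arrays of isp-1, nuo-6 and isp-1 ced-4, the groups in which it was high, so that its tests there are not independent of the filter. hrg-3 rose in isp-1 ced-4 relative to isp-1 by 2.94 (SE 0.822, limma adjusted p = 0.0111) and against ced-4 by 3.87 (SE 0.822, limma adjusted p = 0.000863). The third isp-1 ced-4 array, at 2.80, was within the range of the isp-1 arrays. The call against isp-1 was lost without the first isp-1 ced-4 array (difference 2.15, limma adjusted p = 0.0561), without the second (difference 2.25, limma adjusted p = 0.0727), without the first isp-1 array (difference 2.53, limma adjusted p = 0.0513), and in a fit of these groups alone (limma adjusted p = 0.139). The call against ced-4 held in the 12 alternatives where it was tested, and the stricter filter left the gene out. Apart from the fit with no filter (limma adjusted p = 0.00124), these alternatives carry the same limit from the filter. Sperm markers were lower in isp-1 ced-4, with a mean over 11 genes of 6.41, 4.57 and 4.17 on its 3 arrays, against 7.14 to 7.53 in isp-1, and their part in the result was not tested.

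**Figure D2:**
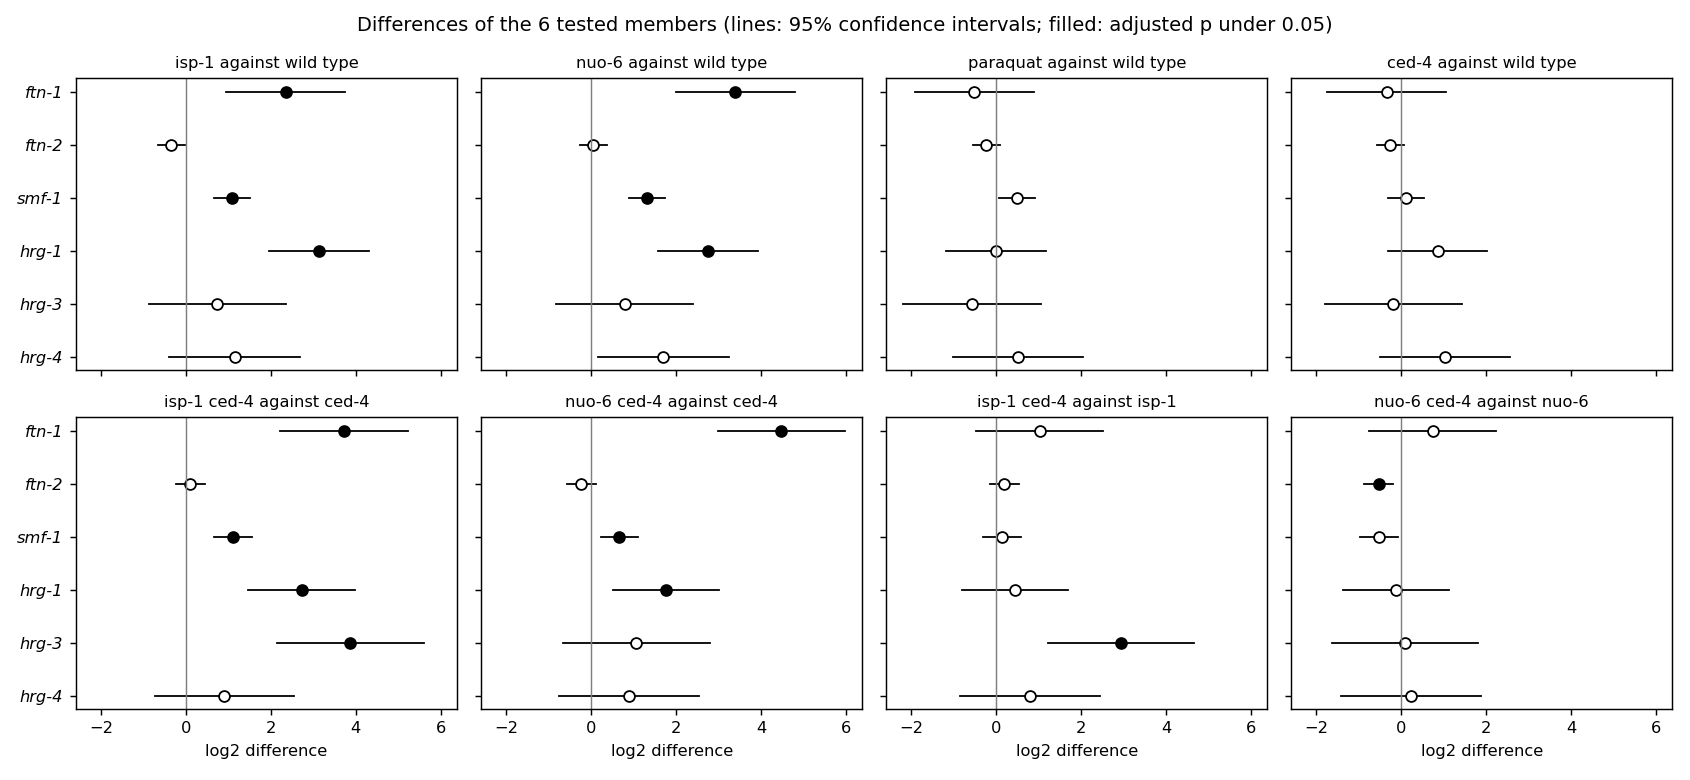
Log2 difference in each comparison for the 6 tested genes, with the 95% interval of the limma model; filled points passed an adjusted p of 0.05. ftn-1, smf-1 and hrg-1 are filled in isp-1 and nuo-6 against wild type and none is filled in paraquat against wild type.

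Counted over the 8 genes, 3 rose and none fell in isp-1 against wild type, namely ftn-1, smf-1 and hrg-1, 3 did not pass and 2 were too low to test; over all 12639 probe sets, 22% were called and 12.3% rose. The ftn-1 rise was not called with the replicate block or in a fit of these groups alone, as given above. The same 3 genes rose in nuo-6, where 18% of probe sets rose and 32.8% were called. In paraquat against wild type 0 of the 6 tested genes passed in limma (1 at an unadjusted p under 0.05, smf-1), although paraquat had more calls over all probe sets than either mutant, 41.5%. In ced-4 against wild type 0 of 6 passed (0 at an unadjusted p under 0.05), with 15.8% of all probe sets called. The median difference over all probe sets was 0.13 with paraquat, which cyclic loess moved to -0.02, and 0.05 in isp-1 and 0.04 in nuo-6.

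Since a gene that passes in a mutant and not with paraquat is not thereby shown to differ between them, the mutants were also set directly against paraquat, in comparisons added after the data were seen. In isp-1 against paraquat ftn-1 rose by 2.87 (SE 0.714, limma adjusted p = 0.00565), hrg-1 by 3.15 (SE 0.596, limma adjusted p = 0.00108) and smf-1 by 0.59 (SE 0.213, limma adjusted p = 0.0394), where 34.5% of all probe sets were called and 16.1% rose. In nuo-6 against paraquat they rose by 3.92 (SE 0.714, limma adjusted p = 0.000445), 2.76 (SE 0.596, limma adjusted p = 0.00157) and 0.82 (SE 0.213, limma adjusted p = 0.00544), where 43.3% of all probe sets were called and 19.8% rose. The arrays of the groups did not overlap in ftn-1, hrg-1 or smf-1. How often arrays did not overlap over all probe sets was not counted, here or in the other comparisons. The smf-1 call in isp-1 against paraquat was lost with no filter (limma adjusted p = 0.0544), with trend and robust options (0.0557), in a fit of these groups alone (0.107), without the second paraquat array (difference 0.35, limma adjusted p = 0.214), without the second isp-1 array (difference 0.45, limma adjusted p = 0.156) and without the first (difference 0.64, limma adjusted p = 0.0607). With paraquat, 11 of 11 tested sperm markers fell and 15 of 15 oocyte and early embryo markers rose against wild type. Of 14 intestinal markers 4 fell. Over all probe sets 41.5% were called in that comparison. The mean intestinal level was 8.92 to 9.02 on the paraquat arrays, against 9.06 to 9.43 in wild type. The part of these markers in the differences between the mutants and paraquat was not tested.

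Between the mutants themselves no member passed. In nuo-6 against isp-1 0 of the 6 tested genes were called in limma (1 at an unadjusted p under 0.05, ftn-2), and a single probe set of all 12639, 0.00791%, was called. The difference was 1.05 in ftn-1 (95% interval -0.45 to 2.55) and -0.39 in hrg-1 (95% interval -1.64 to 0.87), so that changes of some size in either direction lie within the intervals. Without the first isp-1 array, which resembled a nuo-6 array, ftn-2 was higher in nuo-6 by 0.67 with a limma adjusted p of 0.00184.

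Adding ced-4 to the respiratory chain mutants left ftn-1, smf-1 and hrg-1 short of the threshold in either direction. In isp-1 ced-4 relative to isp-1 hrg-3 was the 1 gene called, with 33.2% of all probe sets called, and the differences were 1.02 in ftn-1 (95% interval -0.48 to 2.52), 0.13 in smf-1 (95% interval -0.32 to 0.58) and 0.44 in hrg-1 (95% interval -0.81 to 1.70). In nuo-6 ced-4 relative to nuo-6 ftn-2 was the 1 gene called, with 29.9% of all probe sets called, and the differences were 0.73 in ftn-1 (95% interval -0.77 to 2.24), -0.54 in smf-1 (95% interval -0.98 to -0.09, limma adjusted p = 0.0642) and -0.13 in hrg-1 (95% interval -1.38 to 1.13). Against ced-4 itself, ftn-1, smf-1 and hrg-1 rose in isp-1 ced-4 (52.2% of all probe sets were called and 31.2% rose) and in nuo-6 ced-4 (17.3% were called and 8.88% rose). hrg-3 was called in isp-1 ced-4 as well, but it passed the filter through groups in which it was high. The interaction, which asks whether the effect of the mutation differs between worms with and without CED-4, was called for 0 of 6 genes with isp-1 (18.7% of all probe sets; 1 gene at an unadjusted p under 0.05) and for 0 of 6 with nuo-6 (10.9%; 1 gene at an unadjusted p under 0.05). Its largest value was that of hrg-3 with isp-1, 3.13 (SE 1.13, limma adjusted p = 0.0594), with the same limit from the filter. Without the third isp-1 ced-4 array this was 4.61 and passed, with a limma adjusted p of 0.000108, and without the second isp-1 array 3.66 with a limma adjusted p of 0.0486. Leaving out the first isp-1 array brought the interaction of ftn-2 to 0.72 and past the threshold, with a limma adjusted p of 0.00271.

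**Figure D3:**
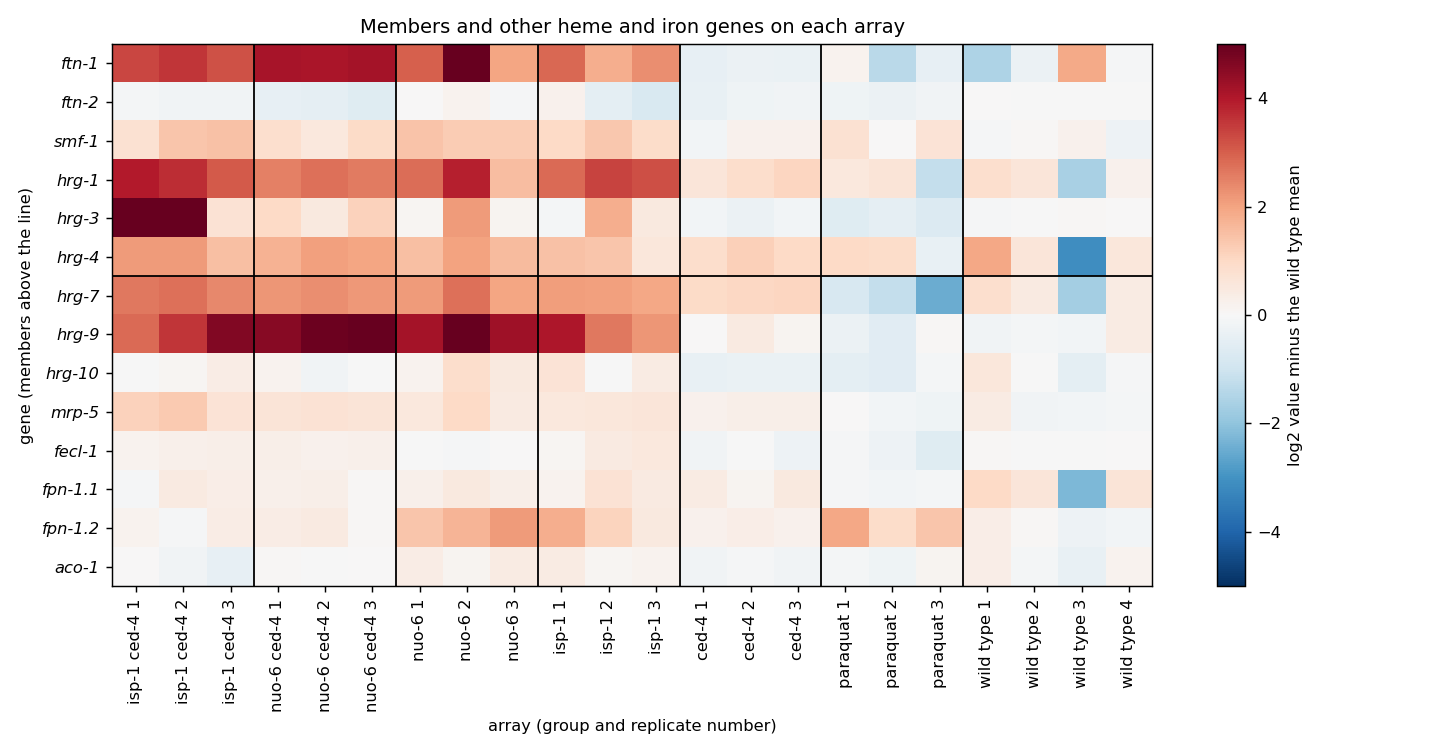
The 6 tested members (above the line) and 8 other heme and iron genes on each of the 22 arrays (columns, grouped, wild type rightmost), coloured by the log2 difference from the wild type mean. hrg-9, hrg-1 and ftn-1 are high across the 4 groups that carry isp-1 or nuo-6, and fpn-1.2 is high in isp-1, nuo-6 and paraquat.

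Other genes of heme handling were taken from a list of 8, of which hrg-7, hrg-9, hrg-10, mrp-5 and fecl-1 were on the array and tested. In isp-1, 4 of these 5 rose and none fell (list median 0.57, against 0.05 over all probe sets, of which 12.3% rose), and in nuo-6 3 rose and none fell (median 0.66, against 0.04, with 18% rising). With paraquat none rose and 2 fell (median -0.32, against 0.13, with 41.5% called). hrg-9, the gene of a heme chaperone related to mammalian TANGO2, had the largest rises. It read 8.04, 6.63 and 6.21 in isp-1 and 8.15, 8.98 and 8.22 in nuo-6, against 3.82, 3.90, 3.83 and 4.38 in wild type. With paraquat it read 3.67, 3.42 and 4.06, close to wild type. Its differences from wild type were 2.98 in isp-1 (SE 0.392, limma adjusted p = 6.59e-05) and 4.47 in nuo-6 (SE 0.392, limma adjusted p = 5.55e-07), and it rose by 4.63 in nuo-6 ced-4 and by 3.46 in isp-1 ced-4 relative to ced-4.

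hrg-7 rose by 2.01 in isp-1 (SE 0.450, limma adjusted p = 0.00419) and by 2.28 in nuo-6 (SE 0.450, limma adjusted p = 0.00107), with all 6 mutant arrays between 11.93 and 12.79 and the wild type arrays at 10.88, 10.45, 8.30 and 10.45. With paraquat hrg-7 read 9.22, 8.84 and 7.54 and fell by 1.49 (SE 0.450, limma adjusted p = 0.0127), the opposite direction to the mutants. That call was lost without the third paraquat array, where the difference was -0.99 (limma adjusted p = 0.103). In fits of the compared groups alone the hrg-7 calls were lost with paraquat (limma adjusted p = 0.128) and in isp-1 (limma adjusted p = 0.0799). Without the third wild type array the isp-1 difference of hrg-7 was 1.44 (limma adjusted p = 0.0032). mrp-5, the gene of the intestinal heme exporter, named here after its values were seen, rose by 0.57 in isp-1 (SE 0.161, limma adjusted p = 0.0165) and by 0.66 in nuo-6 (SE 0.161, limma adjusted p = 0.00465). Both mrp-5 calls were lost in fits of the compared groups alone (limma adjusted p = 0.104 in isp-1 and 0.0697 in nuo-6), and the isp-1 call without the third isp-1 array (0.0558). Relative to isp-1, mrp-5 rose in isp-1 ced-4 by 0.48 (limma adjusted p = 0.0395), a call lost without any 1 of 5 arrays.

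The list of iron regulation and export held 10 genes, of which 6 were tested. 2 of the 6 rose and none fell in isp-1 (median 0.42), in nuo-6 (median 0.43) and with paraquat (median 0.15), and these were vhl-1 and fpn-1.2 each time. Over all probe sets 22% were called in isp-1, 32.8% in nuo-6 and 41.5% with paraquat. The vhl-1 call in isp-1 held in 4 of 14 alternatives, and was lost without the third wild type array (difference 0.36, limma adjusted p = 0.11) and without the first isp-1 array (0.55, limma adjusted p = 0.0667). VHL-1 belongs to the ubiquitin ligase that marks HIF-1 for destruction, and FPN-1.2 is a ferroportin relative. fpn-1.2 read 4.27, 3.56 and 2.93 in isp-1, 3.82, 4.15 and 4.59 in nuo-6, and 4.37, 3.38 and 3.82 with paraquat, against 2.78, 2.52, 2.21 and 2.29 in wild type. It rose by 1.14 in isp-1 (SE 0.269, limma adjusted p = 0.00598), by 1.74 in nuo-6 (SE 0.269, limma adjusted p = 0.000146) and by 1.41 with paraquat (SE 0.269, limma adjusted p = 0.00038). These are low values, and the gene passed the filter through arrays of the same 3 groups, so that its tests there and its interactions are not independent of the filter. The isp-1 call was lost in a fit of the compared groups alone (limma adjusted p = 0.0769). fpn-1.2 fell by 1.45 in nuo-6 ced-4 relative to nuo-6 (SE 0.288, limma adjusted p = 0.00116), with a called interaction of -1.70 (limma adjusted p = 0.013). vhl-1 rose by 0.91 in nuo-6 (SE 0.174, limma adjusted p = 0.000813) and by 0.70 with paraquat (SE 0.174, limma adjusted p = 0.00346), and it fell by 0.91 in nuo-6 ced-4 relative to nuo-6 (SE 0.186, limma adjusted p = 0.00139). aco-1, the iron regulatory protein gene, did not pass in any comparison, with differences from -0.40 to 0.36.

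Of the genes of mitochondrial iron-sulfur cluster assembly, 8 of 16 listed were tested. Among these 3 rose and none fell in isp-1 (median 0.31, with 22% of all probe sets called) and 4 rose and none fell in nuo-6 (median 0.44, with 32.8% called), while with paraquat 1 rose and 1 fell (median 0.11, with 41.5% called). frh-1, the frataxin gene, rose by 0.68 in isp-1 (SE 0.177, limma adjusted p = 0.0103) and by 0.79 in nuo-6 (SE 0.177, limma adjusted p = 0.00267). hsp-6, the mitochondrial HSP70 gene, rose by 0.62 in nuo-6 (SE 0.154, limma adjusted p = 0.00514). The frh-1 call in isp-1 and the hsp-6 call in nuo-6 were lost in fits of the compared groups alone (limma adjusted p = 0.0651 and 0.0794). The gene that rose with paraquat was frh-1 as well, with differences of 0.28 to 0.69 over 14 alternatives, 8 of which kept the call. The gene that fell with paraquat was hsp-6, with differences of -0.62 to -0.39 over 14 alternatives, 10 of which kept the call. In isp-1 ced-4 against ced-4, 4 of the 8 rose and none fell, where 52.2% of all probe sets were called.

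Of 27 listed transporters of zinc, copper, manganese and magnesium, 22 were tested. In isp-1 4 rose and none fell (median 0.23, with 22% of all probe sets called), in nuo-6 9 rose and 1 fell (median 0.40, with 32.8% called), and with paraquat 8 rose and 2 fell (median 0.17, with 41.5% called). zipt-15, a gene of the ZIP family of zinc transporters, rose by 2.64 in nuo-6 (SE 0.391, limma adjusted p = 9.88e-05) and by 2.13 with paraquat (SE 0.391, limma adjusted p = 0.000263), and fell by 2.76 in nuo-6 ced-4 relative to nuo-6 (SE 0.418, limma adjusted p = 9.83e-05). In isp-1 ced-4 relative to isp-1 zipt-15 went the other way. It rose there, with differences of 0.84 to 1.89 over 13 alternatives, 9 of which kept the call. In nuo-6 ced-4 relative to nuo-6, 8 of the 22 fell and none rose (median -0.43, against -0.09 over all probe sets, of which 29.9% were called). cuc-1, the gene of a copper chaperone, rose by 0.82 in isp-1 (SE 0.161, limma adjusted p = 0.0018) and fell by 0.60 with paraquat (SE 0.161, limma adjusted p = 0.00574), and both calls were lost in fits of the compared groups alone (limma adjusted p = 0.0826 and 0.0908).

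**Figure D4:**
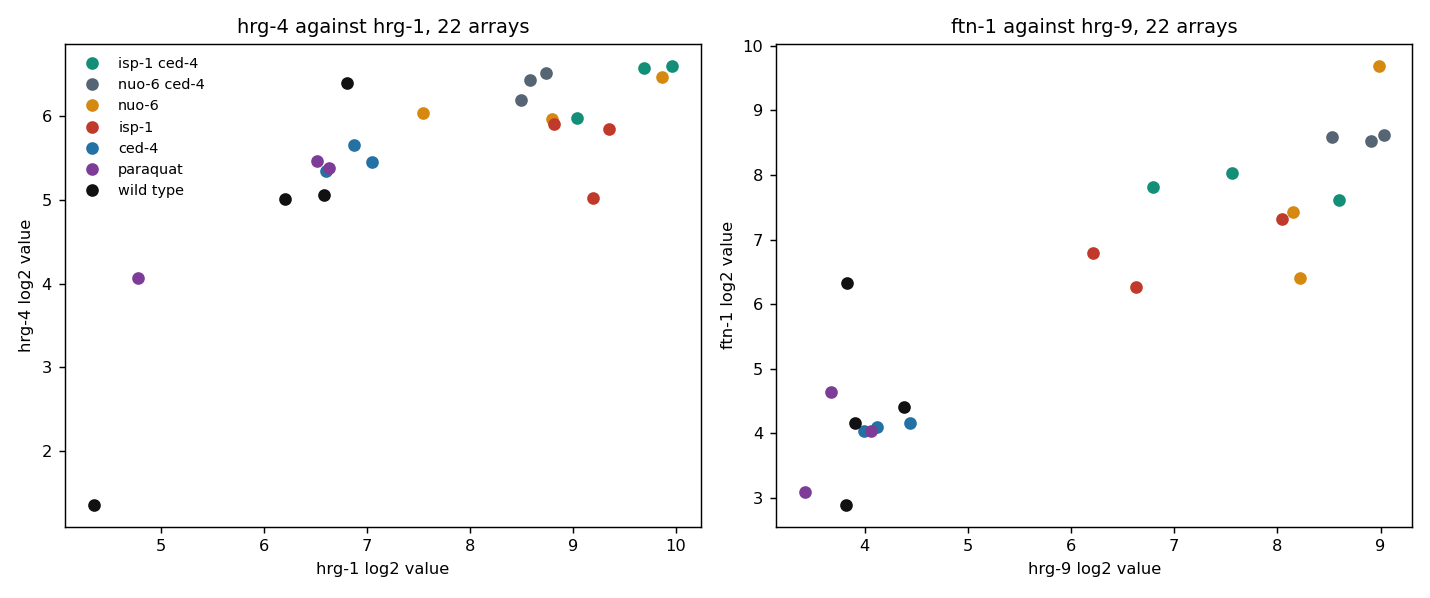
Log2 level of hrg-4 against hrg-1 (left) and of ftn-1 against hrg-9 (right), with 1 point for each of the 22 arrays, coloured by group. The third wild type array and the third paraquat array are the lowest in hrg-1 and in hrg-4 together, and on the right the arrays with isp-1 or nuo-6 mutations lie apart from the rest in hrg-9, at 6.21 or above.

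Likeness over the 22 arrays, which share groups and normalization and so are not independent points, was taken as a description. The genes most like hrg-1 were mrp-5 (Pearson r 0.937) and hrg-7 (0.914), and those most like ftn-1 were F47B8.2 (0.923), hrg-9 (0.916) and F21C10.10 (0.916). smf-1 was most like gsox-1 (0.920), nhr-6 (0.903) and nrde-1 (0.902). hrg-4 was most like R193.2 (0.921), elo-6 (0.865) and C56E6.2 (0.849), hrg-3 was most like tsp-1 (0.867), mrp-5 (0.803) and C10G8.4 (0.773), and ftn-2 was most like F10C2.3 (0.770), slc-17.6 (0.730) and M28.10 (0.722). The highest likeness of ftn-2 was below that of each other tested member.

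Marker lists of tissues moved with some groups and are given for the whole lists. Intestinal markers, 14 of 15 on the array and all 14 tested, had mean levels of 8.51 to 9.45 in isp-1, 8.82 to 9.52 in nuo-6, 8.75 to 9.01 in isp-1 ced-4, 9.28 to 9.33 in nuo-6 ced-4 and 9.51 to 9.55 in ced-4, against 9.06 to 9.43 in wild type. None of the 14 rose and 3 fell in isp-1, and 2 rose and 1 fell in nuo-6, where ftn-1, smf-1 and hrg-1 rose. Sperm markers fell in 5 of 11 tested genes in isp-1 (median -0.90) and in 5 of 11 in nuo-6 (median -1.01). Oocyte and early embryo markers rose in 5 of 15 in each (medians 0.36 and 0.25). Over all probe sets 22% were called in isp-1 and 32.8% in nuo-6. In isp-1 ced-4 against ced-4 none of the 14 intestinal markers rose and 5 fell, where 52.2% of all probe sets were called. Of 13 tested hypodermis and molting markers, 9 rose and 1 fell in ced-4 against wild type, where 15.8% of all probe sets were called. In nuo-6 ced-4 relative to nuo-6, 10 of the 13 rose and 1 fell, where 29.9% of all probe sets were called. The isp-1 ced-4 group did not share this rise. Relative to isp-1, 1 of the 13 rose and 1 fell in isp-1 ced-4. Against ced-4, 1 rose and 9 fell (median -1.65), so these groups differed in such markers. In the isp-1 interaction 8 of the 13 fell and none rose, where 18.7% of all probe sets were called. Body wall muscle markers fell in isp-1 ced-4 relative to isp-1 in 9 of 12, where 33.2% of all probe sets were called. The part of these shifts in the differences of the iron and heme genes was not tested.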

How the data were processed

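The values are log2 expression values that the authors deposited for 22 Affymetrix arrays, and the submitters' processing notes name GCRMA. No source used here gives its settings or says whether the arrays were normalized in 1 run. The log base was inferred from the spread of the values. Of 22625 probe sets, 77 controls were left out, and 12639 that reached the table's median of 3.68 on at least 3 arrays were tested. Genes were named from the platform annotation, and a gene's probe set with the highest mean represented it. A model of the means of all 7 groups was fitted by limma 3.58.1 (R 4.3.3), two-sided, with Benjamini-Hochberg adjustment over all 12639 probe sets. The steps were tested on simulated data. Precision is limited by how many arrays each group has. The members, gene lists and comparisons were chosen with earlier results of these data known. Named are all 8 members and, per list and comparison, up to 2 called genes each way by size of change; a few genes that did not pass are named because a result turns on them. Both filters, cyclic loess, median centring, a fit of the compared groups alone, trend and robust options, a replicate block, the other ftn-2 probe set and leaving out each array were run as alternatives.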

Additional observations from a re-analysis of the deposited data

Results flagged for a closer look

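In 7 of 49 sets of 4 wild type arrays, over the members and the genes of the pathway lists, 1 array stood apart from the other 3. For a single set chance gives about 1 in 20. The 49 sets are the same 4 arrays read in 49 genes and are not independent, so their count cannot be set against that rate. No member was among them. The third wild type array was the low one in hrg-7 (8.30), fpn-1.1 (5.49), vhl-1 (3.60) and zipt-3 (7.03). The second was low in gon-2 (5.92), the first was high in daf-16 (8.67) and the fourth was high in hrg-9 (4.38).

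By limma's interaction, the effect of a respiratory chain mutation differed between worms with and without the ced-4 mutation in 2 of 41 pathway genes with isp-1, where 18.7% of all probe sets were called, and in 7 of 41 with nuo-6, where 10.9% were. With nuo-6 the interaction was -2.96 for zipt-15, -1.70 for fpn-1.2, -1.01 for vhl-1, -0.84 for frh-1, -0.77 for zipt-1, -0.63 for cutc-1 and -0.56 for pmr-1. With isp-1 it was -1.23 for fpn-1.2 and 0.79 for zipt-9. fpn-1.2 passed the filter on low values through isp-1, nuo-6 and paraquat arrays, where it was high, so its interactions are not independent of the filter. The calls of zipt-15 and zipt-9 held in all 20 alternatives run, that of fpn-1.2 with nuo-6 in all 19, vhl-1 in 18 of 20, zipt-1 in 13 of 20, cutc-1 in 10 of 20, fpn-1.2 with isp-1 in 7 of 19, frh-1 in 6 of 20 and pmr-1 in 1 of 20. The fpn-1.2 interaction with isp-1 was -0.89 (limma adjusted p = 0.0994) without the first isp-1 array and -1.15 (limma adjusted p = 0.0557) without the third wild type array.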

How the results depend on the processing

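Over 1148 recomputed member differences, 1059 were counted as keeping direction and side of the threshold. Of the rest, 34 lost a call, 18 gained one and 37 changed sign, none of them a called value. The 1059 include the values of smf-2 and smf-3 with no filter. Those genes were not tested in the main fit, so they had no call to keep or lose. The count of members called changed in isp-1 against wild type to 2 with only the groups compared or the block; in nuo-6 against wild type to 4 with no filter, which adds smf-3; in paraquat against wild type to 1 with only the groups compared; in ced-4 against wild type to 1 with no filter; in isp-1 ced-4 relative to isp-1 to 0 with the stricter filter or only the groups compared; in nuo-6 ced-4 relative to nuo-6 to 0 after loess or centring and 2 with only the groups compared; in isp-1 ced-4 against ced-4 to 3 with the stricter filter and 5 with only the groups compared; in nuo-6 ced-4 against ced-4 to 1 with no filter or with trend and robust options, 2 after centring and 5 with only the groups compared; in isp-1 against paraquat to 2 with no filter, trend and robust options or only the groups compared; and in nuo-6 against paraquat to 4 with no filter or only the groups compared. Leaving out 1 array gave 0 to 1 in paraquat against wild type, isp-1 ced-4 relative to isp-1, nuo-6 ced-4 relative to nuo-6, nuo-6 against isp-1 and the isp-1 interaction, 1 to 2 in nuo-6 ced-4 against ced-4, 2 to 3 in isp-1 against paraquat and 3 to 4 in nuo-6 against wild type. The cause was not tested.

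Deviations from the group mean correlated at -0.246 to 0.277 over 63 pairs of same-numbered arrays of different groups. Over 144 pairs with other numbers the range was -0.340 to 0.323, so same-numbered arrays were no closer by this measure. Whether some groups shared a batch was not tested, and the first isp-1 and first nuo-6 arrays correlated at 0.993. With the replicate block, 2 members were called in isp-1 against wild type, where ftn-1 was lost (2.33, limma adjusted p = 0.0531), and the other member calls were as without it; all probe sets called were 1295 in ced-4 against wild type (1999 without the block) and 897 in the nuo-6 interaction (1372).

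With only the groups compared, ftn-1 in isp-1 against wild type had a limma adjusted p of 0.0965, and the probe sets called were 716 in isp-1 (2775 in the fit of all groups), 2190 in nuo-6 (4150), 853 for ced-4 (1999), 2088 for isp-1 ced-4 relative to isp-1 (4193), 5426 in nuo-6 ced-4 against ced-4 (2192) and 1307 in the isp-1 interaction (2362). Calls of hrg-1 and smf-1 in nuo-6 ced-4 against ced-4 were lost with no filter (limma adjusted p = 0.0715 and 0.0502) and with trend and robust options (0.0515 and 0.0539), and that of hrg-1 after centring (0.0525). Leaving out 1 array, the probe sets called ranged from 1163 to 3404 in ced-4 against wild type, 2748 to 4289 in isp-1 ced-4 relative to isp-1, 1408 to 1496 in nuo-6 ced-4 against ced-4, 0 to 753 in nuo-6 against isp-1, 1371 to 2956 in the isp-1 interaction and 798 to 1959 in the nuo-6 interaction. Over the named pathway genes, 1042 of 1231 recomputed differences kept their call, 189 lost it and none changed sign.

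Uncalled values that changed sign were ftn-2 on its other probe set in nuo-6 against wild type (-0.089) and in isp-1 against paraquat (0.22), hrg-1 with the block in paraquat against wild type (0.060), after loess hrg-1 in nuo-6 ced-4 relative to nuo-6 (0.036) and ftn-2 in isp-1 ced-4 against ced-4 (-0.059), and smf-1 after centring in the isp-1 interaction (-0.014). Leaving out 1 array in turn, the range crossed 0 in nuo-6 against wild type for ftn-2 (-0.013 to 0.10), in paraquat against wild type for ftn-1 (-1.04 to 0.11), hrg-1 (-0.56 to 0.59) and hrg-4 (-0.52 to 1.16), in ced-4 against wild type for ftn-1 (-0.86 to 0.28) and hrg-4 (-0.0055 to 1.67), in isp-1 ced-4 relative to isp-1 for ftn-2 (-0.0099 to 0.46), in nuo-6 ced-4 relative to nuo-6 for hrg-1 (-0.72 to 0.44) and hrg-3 (-0.27 to 0.76), in nuo-6 against isp-1 for hrg-1 (-0.95 to 0.21) and hrg-3 (-0.62 to 0.58), in isp-1 against paraquat for ftn-2 (-0.39 to 0.079), in the isp-1 interaction for smf-1 (-0.11 to 0.24), hrg-1 (-0.69 to 0.14) and hrg-4 (-0.88 to 0.80), and in the nuo-6 interaction for hrg-3 (-0.075 to 0.95) and hrg-4 (-1.45 to 0.23). The values of hrg-3, smf-2, smf-3 and fpn-1.2 lie near the background, where the size of a difference is uncertain. Some other genes were low in their reference groups, around the table median used as the filter. ftn-1 read 2.89 to 6.33 in wild type, 4.04 to 4.16 in ced-4 and 3.10 to 4.64 with paraquat. In wild type hrg-9 read 3.82 to 4.38, zipt-15 read 3.23 to 4.14 and vhl-1 read 3.60 to 4.26. smf-1 read 4.18 to 4.65 in wild type and 4.31 to 4.65 in ced-4. The sizes of the rises of ftn-1, hrg-9, zipt-15, vhl-1 and smf-1, and the fold values of ftn-1 and smf-1, are therefore uncertain too.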
